A study of Mus musculus with 2 samples.

Results

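Lymphotoxin, TNF, BAFF and IL-7 genes were examined in the whole omentum, the sheet of abdominal fat that contains milky spots, its lymphoid clusters. The 10 genes were chosen by name, as TNF superfamily signals that organise lymphoid stroma, their receptors, and the survival factors BAFF and IL-7. All 10 were among the 24346 gene symbols listed. They are 7 cytokine genes (Lta, Ltb, Tnf, Tnfsf14, Tnfsf11, Tnfsf13b and Il7) and 3 receptor genes (Ltbr, Tnfrsf1a and Tnfrsf1b).

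RNA-seq was performed on omenta of WT mice and of Postn-DTR mice, both given diphtheria toxin (DT), and both taken after 5 days. Postn-DTR mice are heterozygotes that carry the DT receptor in the first coding exon of Postn, so that cells using the Postn promoter, among them Aldh1a2+ fibroblastic reticular cells (FRCs), are open to the toxin. That promoter is also used outside the omentum, and no mice without toxin were in this comparison. There was 1 library per genotype, and whether a library held RNA of 1 mouse or of several was not stated. Age and sex were not given.

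Lymphotoxin alpha and lymphotoxin beta are made mainly by lymphocytes and lymphoid tissue inducer cells. Together they form a membrane-bound trimer that acts on the lymphotoxin beta receptor of stromal cells, where it keeps up the alternative NF-kappaB pathway, chemokine production and the stromal network of lymphoid organs. TNF acts through a widely expressed receptor, TNFR1, and a receptor that is mostly found on leukocytes and endothelium, TNFR2. BAFF, the product of Tnfsf13b, keeps B cells alive, and IL-7, made largely by stromal cells, keeps lymphocytes alive.

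Levels are given as FPKM as deposited, that is, fragments scaled to transcript length and library depth. With 1 library per genotype no spread between mice could be measured, no difference has a replicate check and no test of genotype was made. A change is the log2(FPKM + 1) of Postn-DTR less that of WT. It was read over 13127 genes whose FPKM averaged 1 or more, and a 2-fold change was the threshold for counting. Folds of single genes are ratios of the FPKM without the added 1. Brackets give 95% intervals from estimated fragment numbers, and these cover counting error only. The steps between low FPKM values placed the denominators near 23200000 (WT) and 24000000 (Postn-DTR) fragments, so depth was similar.

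A few features of the libraries bear on every value. Postn, the targeted gene, was at 58.3 in WT against 16.2 in Postn-DTR. An allele of Postn itself carries the insertion in Postn-DTR mice. The insertion and a loss of cells cannot be told apart in this value. Omental markers were present, as adipocyte markers summed to 9855 and 7552 and mesothelial markers to 467.6 and 473.7. Pancreatic acinar markers made up 2.18% of all FPKM in WT and 0.00296% in Postn-DTR. All FPKM summed to 542190 and 671882. When both libraries were brought to equal totals without acinar genes, the median change of all genes compared was -0.28 instead of 0.02, so changes of that size in 1 gene have no firm direction. Xist, which marks female cells, was at 7.71 and 15.7, and Ddx3y, a Y-linked gene, at 10.3 and 3.66, so transcripts of both kinds were present in both libraries. Genotype, acinar content and sex mixture cannot be told apart here.

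Ltb, Tnf and Lta are neighbours within 10913 bp of the MHC region on chromosome 17 (GRCm38). Ltb (ENSMUSG00000024399) lies at 35194439 to 35196320 on the plus strand. Tnf (ENSMUSG00000024401) lies at 35199381 to 35202007 and Lta (ENSMUSG00000024402) at 35203165 to 35205351, both on the minus strand. Ltb and Tnf are separated by 3060 bp and Tnf and Lta by 1157 bp, and no exon of another annotated gene overlaps their exons. Of the other genes, Ltbr (ENSMUSG00000030339, 125306571 to 125313885, minus strand) and Tnfrsf1a (ENSMUSG00000030341, 125349362 to 125362484, plus strand) are both on chromosome 6. Tnfsf14 (ENSMUSG00000005824) is also on chromosome 17, at 57189492 to 57194177. The bases just before their starts are shown because these are the genes that were lower in Postn-DTR. They are RefSeq sequences on GRCm38.p6, read in the direction of each gene, and for Ltb the stretch ends where the first annotated exon begins. Capitals mark the NF-kappaB consensus in Ltb and TATAAA, a core promoter motif, in Tnf and Lta, both searched on both strands.
Ltb, chr17:35194257-35194438, plus strand: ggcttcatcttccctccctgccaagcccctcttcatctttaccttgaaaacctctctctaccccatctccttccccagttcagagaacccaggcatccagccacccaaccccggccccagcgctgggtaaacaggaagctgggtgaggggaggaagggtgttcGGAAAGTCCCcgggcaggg
Tnf, chr17:35202008-35202257, minus strand: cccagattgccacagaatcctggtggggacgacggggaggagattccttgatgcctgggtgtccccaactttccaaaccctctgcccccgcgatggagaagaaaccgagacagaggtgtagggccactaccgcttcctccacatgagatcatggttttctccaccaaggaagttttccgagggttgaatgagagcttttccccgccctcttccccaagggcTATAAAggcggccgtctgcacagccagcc
Lta, chr17:35205352-35205601, minus strand: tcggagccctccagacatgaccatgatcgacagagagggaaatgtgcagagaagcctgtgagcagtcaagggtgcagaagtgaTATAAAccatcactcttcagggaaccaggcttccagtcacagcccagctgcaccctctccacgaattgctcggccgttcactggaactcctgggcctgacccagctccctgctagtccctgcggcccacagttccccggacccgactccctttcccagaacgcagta

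Windows of 250 bases before a start were given for 9 of the 10 genes, and not for Il7. The NF-kappaB consensus was found in 1 of these 9 genes, Ltb, with its first base 87 bases before the RefSeq start, and in 3.90% of all 32841 promoter windows of that length. TATAAA was found in Tnf, 29 bases before the start, in Tnfsf11, 32 bases before, and in Lta, 167 bases before. Of all windows 12.4% held it. None of these genes held both motifs in its window. These are matches of letters in a window and say nothing of binding.

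The lymphotoxin genes were the ones that differed most. Ltb was at an FPKM of 69.3 in WT against 23.6 in Postn-DTR, on about 1126 and 396 fragments. The Postn-DTR library was thus 2.94-fold lower (2.62 to 3.31), a change of -1.52. Of all genes compared 1.20% had a more negative change. Lta, which encodes the other chain of the trimer, was at 5.74 in WT against 1.72 in Postn-DTR, on about 157 and 49 fragments. It was 3.34-fold lower (2.39 to 4.66), a change of -1.31, and 1.67% of genes compared had a more negative change. The intervals of both folds overlapped, and the ratio of Ltb to Lta was 12.1 in WT against 13.7 in Postn-DTR.

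Lta and Ltb were the 2 of 9 genes compared that were at least 2-fold lower, against 3.12% of all genes compared. None of the 9 was at least 2-fold higher, against 3.88% of all genes. Among genes of a mean FPKM of 1 to 10, where Lta lies, 4.00% were lower and 3.48% higher. From 10 to 100, where Ltb, Ltbr and Tnfrsf1b lie, 2.02% were lower and 3.43% higher, and from 100 upward, where Tnfrsf1a lies, 5.11% and 9.77%. On the ratio without the added 1 the same 2 genes were past 2-fold, against 5.20% of all genes lower and 5.04% higher. At 1.5-fold on log2(FPKM + 1) these 2 were lower and Tnfrsf1b was higher, against 8.84% and 9.86% of all genes. On the ratio without the added 1, Tnf (1.66-fold lower) and Il7 (ratio 1.62) were also past 1.5-fold. The share of all genes past 1.5-fold on that ratio was not computed. Tnfsf11, at a mean under 1, was not counted. The median change of the 9 genes was 0.19, beside 0.02 for all genes compared, and it became -0.15 at equal totals without the acinar genes.

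Tnf, which lies between these genes, differed less. Its FPKM was 3.76 in WT against 2.26 in Postn-DTR, on about 110 and 68 fragments, which was 1.66-fold lower (1.23 to 2.30) with a change of -0.55. Of all genes compared 9.89% had a more negative change. Its fold interval did not reach those of Lta and Ltb. Tnf was lower under all 6 alternatives tried, with changes from -0.80 to -0.27.

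**Figure D1:**
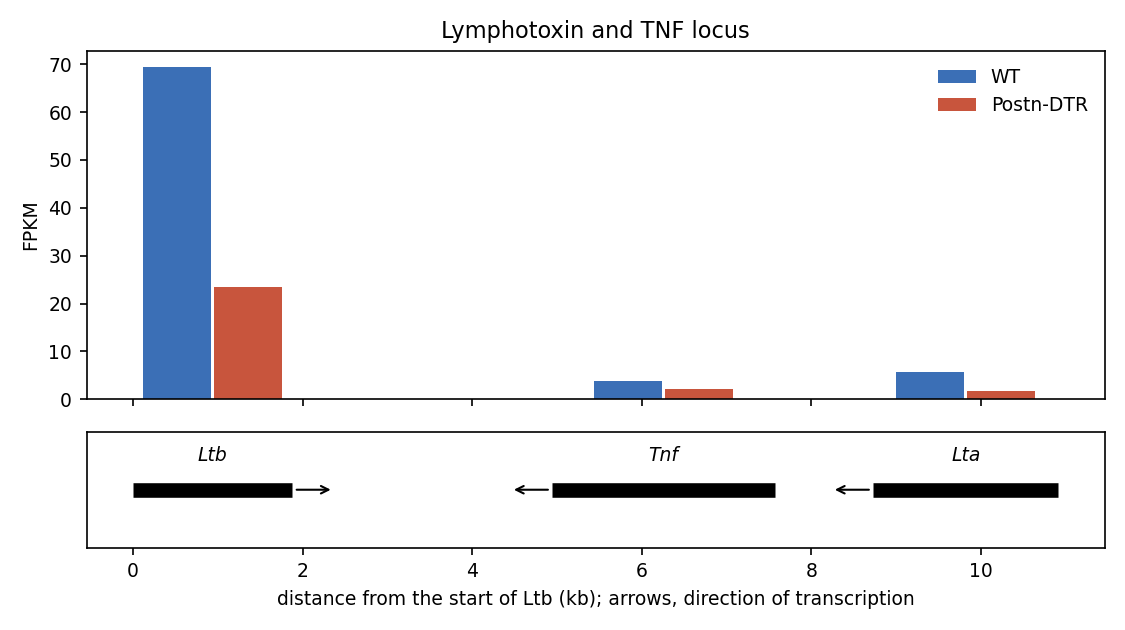
FPKM of Ltb, Tnf and Lta in the WT (blue) and Postn-DTR (red) library (upper panel, linear axis from 0, 1 library per bar), above their places along the locus in kb from the start of Ltb (lower panel, black bars are genes). Ltb was at 69.3 and 23.6, Tnf at 3.76 and 2.26, and Lta at 5.74 and 1.72.

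The other cytokine genes of the group were not lower on the deposited scale. Tnfsf14, which encodes LIGHT, a further ligand of the lymphotoxin beta receptor, was at 2.96 in WT against 3.86 in Postn-DTR, on about 113 and 152 fragments. The ratio of Postn-DTR to WT was 1.30 (1.01 to 1.67) and the change 0.29, which shrank to 0.03 at equal totals without the acinar genes. Tnfsf11, which encodes RANKL, a signal for osteoclasts and for lymphoid stroma, was at 0.739 and 0.776, on about 35 and 38 fragments, and its change of 0.03 turned to -0.12 at equal totals and below 0 after scaling to the 75th percentile. Its ratio of 1.05 had an interval from 0.646 to 1.71, so a difference inside that interval was not detectable at this depth.

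Tnfsf13b (BAFF) was nearly level, with an FPKM of 5.97 in WT against 6.30 in Postn-DTR on about 143 and 156 fragments. Its ratio was 1.06 (0.835 to 1.33), and its change of 0.07 turned to -0.23 at equal totals without the acinar genes. Il7 had the largest ratio of the 10 genes. It was at 1.93 in WT against 3.12 in Postn-DTR, on about 71 and 118 fragments, with a ratio of 1.62 (1.19 to 2.19) and a change of 0.49. It was higher under all 6 alternatives, from 0.23 to 0.70, and stayed under a 2-fold change in each. An annotated antisense gene, Gm16685, shares exon positions with Il7 on the opposite strand. The sources name different library kits, and the strand setting used in counting was not given in the sources used here, so reads of these genes may not have been told apart.

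The receptor genes and Ltb were the most abundant of the group in both libraries. Ltbr, which encodes the lymphotoxin beta receptor, was at 48.4 in WT against 55.4 in Postn-DTR, a ratio of 1.14 (1.08 to 1.21). Its change of 0.19 turned to -0.15 at equal totals without the acinar genes. Receptor and ligand transcripts thus stood in another proportion: Ltbr was at 0.698 times the FPKM of Ltb in WT and at 2.35 times in Postn-DTR. Tnfrsf1a (TNFR1) was at 139.8 and 174.2, a ratio of 1.25 (1.21 to 1.29), and its change of 0.32 turned to -0.02 at equal totals. Tnfrsf1b (TNFR2) was at 40.3 and 61.1, a ratio of 1.52 (1.45 to 1.59). Its change of 0.59 kept its direction under all 6 alternatives, from 0.26 to 0.60. The ratio of Tnfrsf1a to Tnfrsf1b was 3.47 in WT against 2.85 in Postn-DTR.

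**Figure D2:**
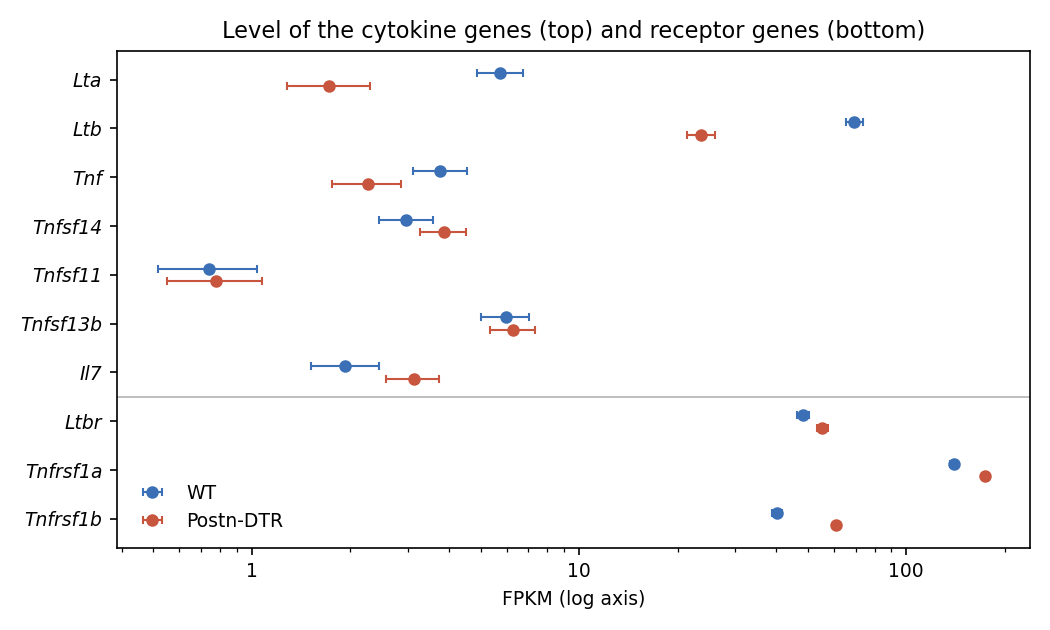
FPKM (log axis) of the 7 cytokine genes (above the line) and 3 receptor genes (below it) in the WT (blue) and Postn-DTR (red) library, 1 library each, where bars are 95% intervals of counting error only. Lta, Ltb and Tnf lie further left in Postn-DTR, and Il7 and the 3 receptors further right, with no overlap of their bars, while the bars of Tnfsf11, Tnfsf13b and Tnfsf14 overlap.

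FPKM is scaled to transcript length, so levels can be ranked between genes. In WT the order was Tnfrsf1a, Ltb, Ltbr, Tnfrsf1b, Tnfsf13b, Lta, Tnf, Tnfsf14, Il7 and Tnfsf11. Counting intervals overlapped for the neighbours Tnfsf13b and Lta, and for Tnf and Tnfsf14. In Postn-DTR the order was Tnfrsf1a, Tnfrsf1b, Ltbr, Ltb, Tnfsf13b, Tnfsf14, Il7, Tnf, Lta and Tnfsf11, and intervals overlapped for Tnfsf14 and Il7, for Il7 and Tnf, and for Tnf and Lta. Ltb went from rank 2 to rank 4 and Lta from rank 6 to rank 9.

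The receptors and decoys of these ligands were read next. None of the 8 genes reached 2-fold in either direction, and 7 were lower in Postn-DTR. The median of the 8 changes was -0.47. Tnfrsf14, which encodes HVEM, a receptor of LIGHT on lymphocytes, was at 16.1 in WT against 10.7 in Postn-DTR (ratio 0.666). Of the RANKL pair, Tnfrsf11a (RANK) was level at 3.29 and 3.16, while Tnfrsf11b, the decoy osteoprotegerin, was at 5.22 and 2.95, a ratio of 0.566 (0.470 to 0.681). Osteoprotegerin transcripts were at 7.06 times the FPKM of Tnfsf11 in WT and at 3.80 times in Postn-DTR.

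The BAFF receptors did not share a direction. Tnfrsf13c, the BAFF receptor that mature B cells need for survival, was at 17.98 in WT against 12.88 in Postn-DTR, a ratio of 0.716 (0.565 to 0.901). Tnfrsf13b (TACI) was at 11.9 and 10.3, a ratio of 0.865 (0.685 to 1.11). Tnfrsf17 (BCMA), the receptor of plasma cells, was at 5.28 and 10.3, a ratio of 1.95 (1.46 to 2.59) and the single gene of the 8 that was higher. Both chains of the IL-7 receptor were lower while Il7 was higher. Il7r was at 10.1 and 6.92 (ratio 0.685) and Il2rg, the chain shared with other cytokine receptors, at 94.6 and 67.0 (ratio 0.708). Il7r was at 5.25 times the FPKM of Il7 in WT and at 2.22 times in Postn-DTR.

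**Figure D3:**
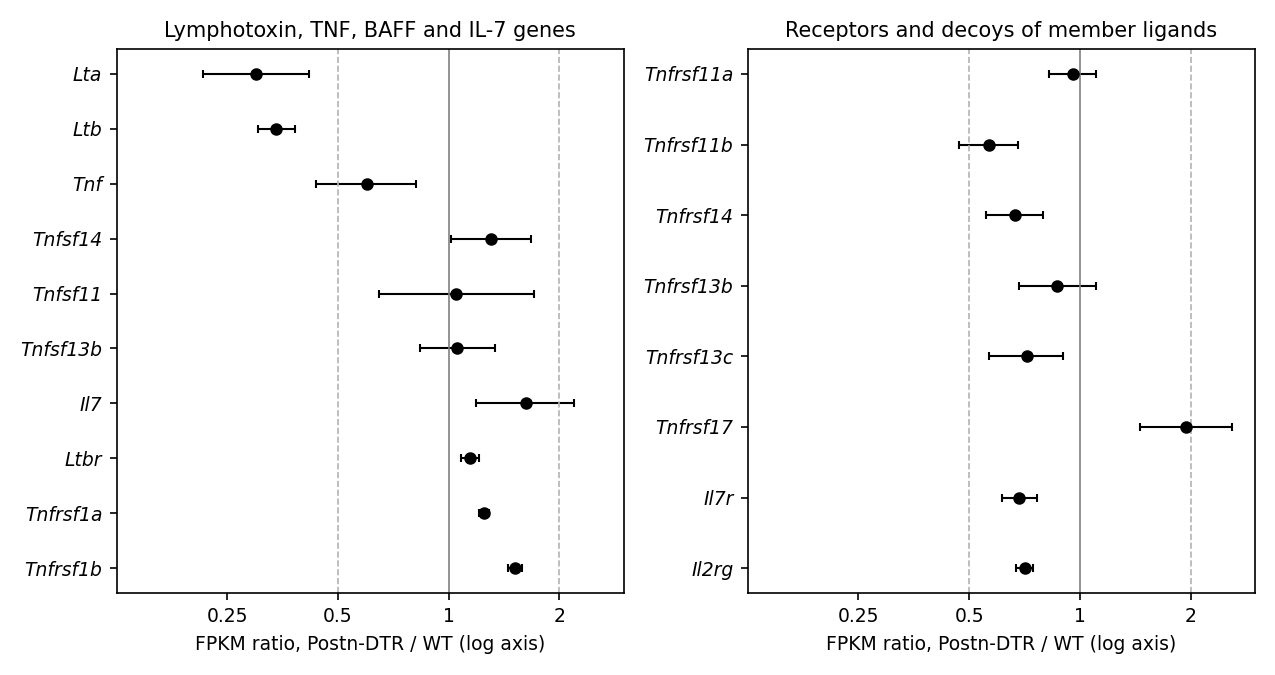
Ratio of Postn-DTR to WT FPKM (log axis) for the 10 genes (left) and for the receptors and decoys of their ligands (right), 1 library per genotype, with 95% intervals of counting error only; dashed lines mark 2-fold. The intervals of Lta and Ltb lie wholly below the lower dashed line, and Tnfrsf17 is the only partner gene with a ratio over 1.

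The rest of the TNF superfamily, where compared, was mostly within 2-fold. Of 12 other ligands 4 had a mean FPKM of at least 1 and none of these reached 2-fold on log2(FPKM + 1). Tnfsf9 (4-1BBL), a costimulatory ligand, came nearest, at 1.46 in WT against 3.87 in Postn-DTR. Its ratio without the added 1 was 2.65 (1.79 to 3.96), and it passed 2-fold with an added 0.1 in place of 1. Tnfsf13 (APRIL), which shares TACI and BCMA with BAFF, was at 22.5 and 36.8, and it stood at 3.77 times the FPKM of Tnfsf13b in WT against 5.84 times in Postn-DTR. Cd40lg, the CD40 ligand of helper T cells, was under the minimum and was chosen after its values were seen. It was at 1.23 and 0.317, on about 30 and 8 fragments. Of the 8 ligands under the minimum, Tnfsf8 (ratio 0.437, 0.308 to 0.619), Tnfsf15 (0.222, 0.0910 to 0.501) and Tnfsf4 (0.322, 0.0513 to 1.13) were also lower. Tnfsf18 and Eda were lower by less than 2-fold, Fasl was higher (1.40, 0.166 to 17.4), and Cd70 was at 0 in both libraries. Of 14 other receptors compared 2 were at least 2-fold lower and none higher. These were Ngfr, the low-affinity neurotrophin receptor, also a marker of some lymphoid stromal cells, at 5.38 and 1.63, and Cd27, a receptor of T cells and memory lymphocytes, at 5.53 and 1.69.

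Downstream, the adaptors and alternative NF-kappaB kinases were within 2-fold in 11 of 12 genes. Their median change was -0.16. Traf1, an adaptor of lymphocytes that NF-kappaB induces, was the exception, at 18.8 in WT against 7.29 in Postn-DTR. Traf5 followed at 14.0 and 7.48. Of 4 genes of ligand shedding none reached 2-fold, and the largest changes were 0.57 for Rhbdf2 and -0.41 for Adam17, the TNF-converting enzyme. Of 10 genes of IL-7 receptor signalling 1 was at least 2-fold higher, Socs2, a feedback inhibitor of cytokine receptors, at 14.1 and 30.7. Its change of 1.07 was under 2-fold at equal totals, after scaling to the 75th percentile and with an added 5. Crlf2, the TSLP receptor chain that pairs with the IL-7 receptor, was at 28.0 and 50.3.

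Genes known to respond to the lymphotoxin beta receptor and to TNF receptors were read as separate lists, and the difference between the lists was not tested. Of 11 lymphotoxin beta receptor targets in lymphoid stroma and vessels 3 were at least 2-fold lower and none was at least 2-fold higher, with -0.14 as the median change of the 11. The 3 were Glycam1, a ligand of high endothelial venules (10.6 and 0.775), and the stromal chemokines Ccl19 (61.1 and 17.8) and Cxcl12 (180.0 and 69.5). Glycam1 rested on about 80 and 6 fragments. Quantitative PCR in the study, on several mice per genotype, found Cxcl12 lower but Ccl19 comparable between genotypes. The Ccl19 difference of these libraries was thus not seen there. Other chemokines of this list, Cxcl13 (1038 and 940.4) and Ccl21a (17.0 and 18.6), were nearly level. Nfkb2 was at 42.8 and 29.6 and Relb at 25.1 and 24.2, both chosen as the alternative NF-kappaB subunits after their values were seen. Of 13 TNF-induced genes compared 8 were at least 2-fold higher and none was lower. Their median change was 1.28. Sele, or E-selectin, the gene of this list under the minimum, was lower, at 0.823 and 0.459, a ratio of 0.558 (0.344 to 0.891). The neutrophil chemokines Cxcl1 (1.78 and 34.9) and Cxcl2 (0.731 and 12.1) led, followed by Selp, or P-selectin (8.55 and 44.3), and Il6 (0.436 and 5.58). At equal totals 12 of the 13 were higher, 6 of them at least 2-fold, and Vcam1 turned lower. The part of TNF in these values was not tested. Icam1 and Vcam1 stand in both lists.

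**Figure D4:**
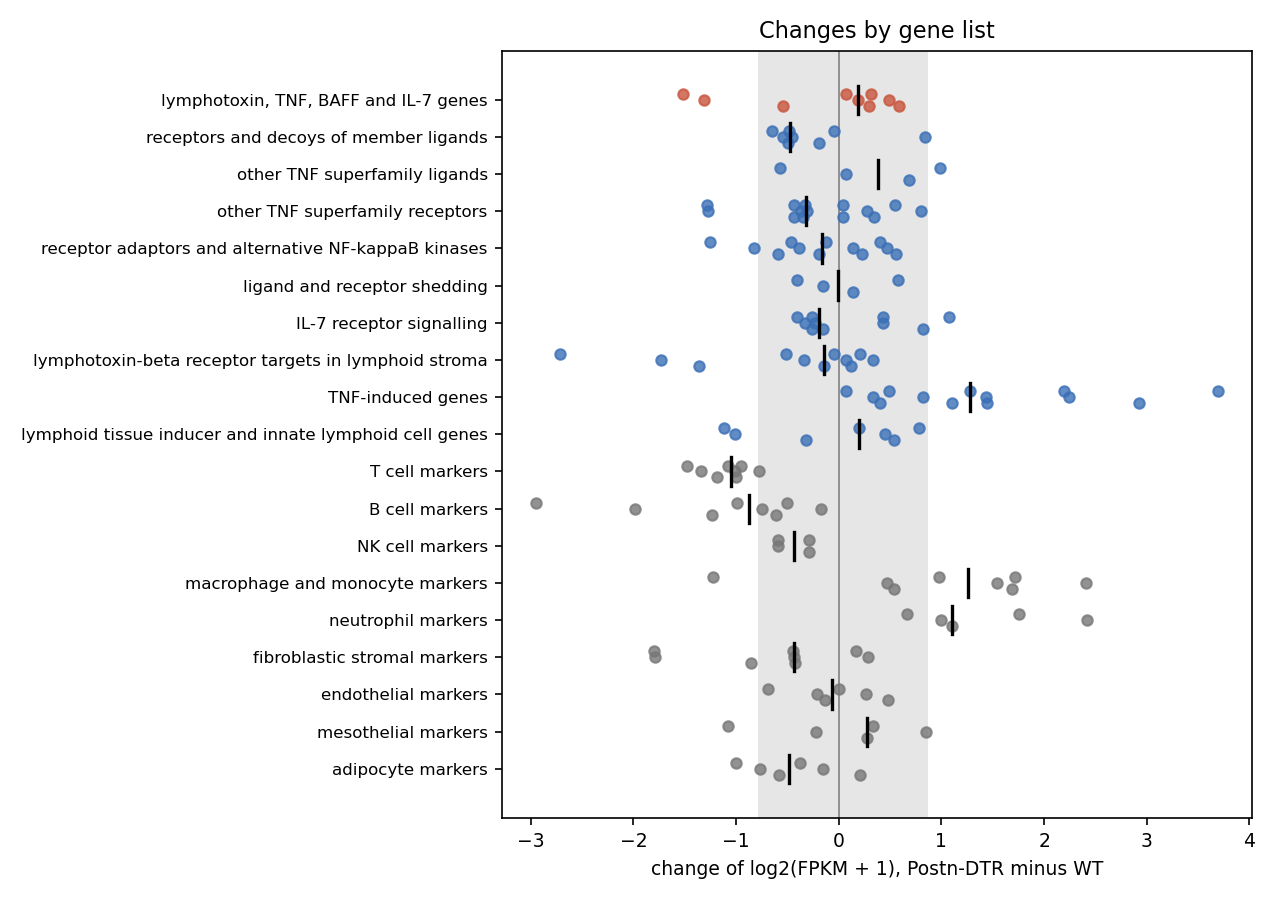
Difference in log2(FPKM + 1) between Postn-DTR and WT (negative, lower in Postn-DTR) of every gene compared (points) in 19 of the 20 lists, with the list's median (black line); the acinar list lies off this scale and the grey band spans the 5th to 95th percentile of all genes, -0.79 to 0.87. The lymphotoxin, TNF, BAFF and IL-7 genes (red) have a median of 0.19 with Ltb and Lta left of the band, pathway lists are blue and cell type markers grey.

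Cell type markers moved beside these values. In whole tissue, fewer cells of a type and less RNA per cell cannot be told apart from RNA levels alone. The study also counted omental cells 5 days after toxin. Postn-DTR omenta held fewer T cells, both CD4 and CD8, and fewer conventional B cells (B2). The number of B1 cells was unchanged in those counts. All 8 T cell markers were lower in Postn-DTR, 6 of them at least 2-fold. They were 1.78-fold to 3.31-fold lower, and they summed to 95.4 in WT against 41.2 in Postn-DTR. All 8 B cell markers were lower, 3 at least 2-fold (5 at equal totals). They were 1.13-fold to 9.86-fold lower, with sums of 521.4 and 349.5. The fold of Ltb, 2.94, lay within both ranges, and that of Lta, 3.34, within the B cell range and just past the T cell range. The ratio of Ltb to Cd3e, part of the T cell receptor complex, was 4.45 in WT against 3.45 in Postn-DTR, and that of Ltb to the B cell gene Ms4a1 was 1.22 and 0.998. None of the T cell or B cell markers was at 0 in either library. Their part in the lymphotoxin values was not tested.

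Of the lymphoid tissue inducer and innate lymphoid cell genes 7 were compared. Ccr6 and Cxcr5, which B cells also express, were at least 2-fold lower, at 7.18 and 2.78 and at 17.4 and 8.17. None was at least 2-fold higher. Il22, a cytokine of these cells that was named after its values were seen, was listed at 0 in both libraries. Of 4 NK cell markers compared all were lower and none reached 2-fold.

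Myeloid markers went the other way, as did Tnfrsf1b and Il7. Of 8 macrophage and monocyte markers 7 were higher, 4 of them at least 2-fold, and their sum was 2926 in WT against 4742 in Postn-DTR. The exception was Ccr2, at 39.6 and 16.4. Cell counts in the study, also 5 days after toxin, found no altered number of macrophages in Postn-DTR omenta. The sum of these markers is thus not a count of macrophages. All 5 neutrophil markers compared were higher, 3 at least 2-fold. Fibroblastic stromal markers, which mark cells that make IL-7 and bear the lymphotoxin beta receptor, summed to 2164 in WT against 1263 in Postn-DTR, with 2 of 8 at least 2-fold lower, Dpt and Postn, and none at 0. Col3a1 (1264 and 698.8) made up most of the difference in this sum. Postn is the gene that carries the insertion, so its value does not measure stromal cells alone. Aldh1a2, for which the targeted FRCs are named, was at 85.5 and 63.3, a ratio of 0.740 (0.706 to 0.776). Earlier work cited by the study found Aldh1a2 in omental mesothelial cells as well. Its level in whole omentum thus does not measure these FRCs alone. Pdgfra (26.0 and 29.2) and Pdpn (46.6 and 57.1), which are among the markers used for FRCs, were higher, and both turned lower at equal totals. Pdpn is also expressed by mesothelial and lymphatic endothelial cells, so its level in whole omentum does not measure FRCs. Endothelial markers, with 6 genes, had none past 2-fold, and sums of 234.7 and 233.7. The part of these cell types in the receptor and Il7 values was not tested.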

How the data were processed

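Whole-omentum RNA was sequenced in 1 WT and 1 Postn-DTR library. The labels name a TruSeq kit for stranded mRNA, while the RNA-seq methods of the study, which describe sorted cells, name an NEBNext Ultra kit. Whether strand was kept is therefore not settled. The authors deposited FPKM, 1 value per gene symbol. The submitters' processing notes name mm10, TopHat2 2.1.1, Bowtie2 2.2.8, SAMtools 0.1.18 and Cuffdiff 2.2.1. The annotation and read counts were not given in the sources used here.

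Genes whose FPKM averaged 1 or more were compared on log2(FPKM + 1) with a 2-fold threshold, without a test. Members and lists were chosen with earlier results of these data known. Named genes were the members, the receptors and decoys of their ligands and, from each other list, up to 6 genes past 2-fold, or the 2 largest changes. Others were named outside this rule with their values known, among them Cd40lg and the other ligands under the minimum. Il22, Sele, Nfkb2, Relb, Cxcl13, Ccl21a, Col3a1, Aldh1a2, Pdgfra and Pdpn were named in the same way. Ly6g was not analysed here.

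Depth came from genes with 1 GENCODE M21 transcript, by the denominator and length reduction (205 bp) that brought FPKM under 0.2 closest to whole fragments. In each library 79.0% of such values lay within 0.1 of a whole number (20% if evenly spread). The Postn-DTR denominator was set by the most common step ratio, 0.967, at 174 of 723 low genes. Fragments used the shortest coding transcript, so they are approximate. Intervals are exact binomial for ratios and exact Poisson for levels (scipy 1.17.1, Python 3.11.15). Functions were tested on simulated data.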

Additional observations from a re-analysis of the deposited data

How the results depend on the processing

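Lta and Ltb were the 2 genes at least 2-fold lower as reported, and the same 2 were counted with a pseudocount of 0.1, at equal totals without acinar genes, when centred, when scaled to the 75th percentile, without a filter, at 1.5-fold, and on the FPKM ratio without a pseudocount, an alternative chosen after the data were seen. The count was 1 (Ltb) with a pseudocount of 5, which shrinks low genes by construction and moved Lta to -0.68, 1 (Ltb) with a mean FPKM of at least 10, which removes Lta, and 0 at 3-fold. The count of genes at least 2-fold higher was 0, and became 1 (Tnfrsf1b) at 1.5-fold, a threshold that 9.86% of all genes reached. The median change of 0.19 became -0.15 at equal totals. Of 60 values of single genes under alternatives, 10 moved by at least the distance from the middle of the counting interval to its edge. Lta and Ltb kept their sign in all. Ltbr, Tnfrsf1a, Tnfsf13b and Tnfsf11 turned from higher to lower at equal totals, Tnfsf11 also after scaling to the 75th percentile. At equal totals 791 of all genes compared were at least 2-fold lower and 306 at least 2-fold higher, in place of 410 and 509. No paired analysis was possible because each genotype had 1 library. Depth limits Tnfsf11 most, with about 35 and 38 fragments.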
